A study of Mus musculus with 42 samples.

Results

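The 7 libraries described here, of 42 in the series, were colon crypts from the distal 5 cm of the colon of untreated wild-type (WT) mice. All 7 were wild-type for Mtg16 per the labels, and they differed in the colony that bred the mice. Members were chosen by their labels and not by a measured value: 3 libraries were WT matched to T/T mice, which carry the P209T substitution of MTG16 on both alleles, and 4 were WT matched to Mtg16-null mice. The study compared each mutant with WT of its own colony and set the pooled WT libraries of distal colon against those of proximal colon. The question here is how far WT crypts of the 2 colonies differed from each other before any mutant was brought in. Both colonies were on a C57/BL6 background per the labels, were kept apart, were bred from heterozygous pairs, and gave mice of at least 8 weeks. The Mtg16-null line was described as backcrossed to C57BL/6J, and the P209T line was made by CRISPR in C57BL/6J embryos. The 3 libraries of the T/T colony (replicates 1 to 3) and 2 of the Mtg16-null colony (replicates 1 and 2) carried the request number 5094 in their names. The other 2 libraries of the Mtg16-null colony (replicates 3 and 4) carried the request number 4149.

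MTG16 (gene symbol Cbfa2t3) is a transcriptional corepressor that holds back E proteins, the bHLH partners of factors that set the fate of secretory cells. Colon crypts hold stem cells at the base, dividing progenitors above them, and goblet, enteroendocrine, tuft and absorptive cells toward the surface. WT littermates serve as the baseline for each mutant, and colonies kept apart can differ in the variants, microbes and handling that their mice share.

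The processed values were DESeq2-normalized counts, that is, reads per gene divided by a size factor for each library. They gave back whole reads in 100% of values, with 35346472 to 68919446 assigned reads per library. Of 18515 genes, 13598 had a mean normalized count of 10 or more over the 7 libraries and were tested. The 12 epithelial markers summed to 767206 to 898408 normalized counts in each library. Pearson correlations of log2 levels across genes had a median of 0.986 over the 5 pairs of libraries of the same colony and request, 0.983 over the 6 pairs of different colonies in the same request, and 0.979 over the 4 pairs of the same colony in different requests. The labels gave no sex. Xist, the RNA that silences an X chromosome in females, stood at 28081 in T/T colony replicate 1 and at 0 and 5.77 in replicates 2 and 3. In the Mtg16-null colony it stood at 32446 and 3.38 in request 5094 and at 34415 and 22173 in request 4149. The Y-linked helicase gene Ddx3y showed the reverse, with 1862, 1439.9 and 1602 in the 3 libraries low in Xist and 0 in the other 4. Both patterns of sex-linked genes were thus present in each colony within request 5094, and only the Xist-high pattern in request 4149. The labels do not say that each library came from 1 mouse, so p-values measure the spread between these libraries.

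Across all 7 libraries the 2 colonies differed in 5 of 13598 genes (0.0368%), 1 higher (0.00735%) and 4 lower (0.0294%) in the T/T colony, by limma on log2(normalized count + 1) at a Benjamini-Hochberg adjusted p under 0.05. The higher gene was Rps13, which encodes a protein of the small ribosomal subunit. The lower genes were Nhsl1, Ptprs, the histone H4 gene Hist1h4m and the pseudogene Gm3650. Without regard to a test, 705 genes (5.18%) were higher and 715 (5.26%) lower in the T/T colony with no overlap between the 7 libraries. Before adjustment, limma gave 691 higher (5.08%) and 720 lower (5.29%) genes at a p under 0.05. On the recovered reads edgeR called 1 higher (0.00735%) and 2 lower (0.0147%), and DESeq2 49 (0.368%) and 77 (0.578%) of the 13327 genes it gave an adjusted p. An exact permutation test of a single gene over 3 against 4 libraries cannot give a two-sided p under 0.0571.

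Rps13 (ENSMUSG00000090862.3, chromosome 7, 116331505 to 116334195, minus strand, GRCm38) stood at 10502, 10951 and 11314 normalized counts in the T/T colony and at 3562, 3433, 4050.5 and 4397 in the Mtg16-null colony. The groups were far apart and each was tight. The log2 difference was 1.51 ± 0.09 (SE, 3 against 4 libraries; limma, adjusted p = 0.000446). Other genes held 23.0% of its 31-base words, the most in Rps13-ps1 with 15.8%. Rps13 was called in each of the 7 fits that left out 1 library and in each of 13 other alternatives.

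Nhsl1 (chromosome 10, 18318985 to 18533892) encodes a relative of the Nance-Horan syndrome protein that acts on the actin cytoskeleton. It stood at 2202, 2208 and 2311 in the T/T colony and at 3726, 3737, 4507 and 4277 in the Mtg16-null colony, again without overlap. The log2 difference was -0.85 ± 0.09 (SE; limma, adjusted p = 0.0172). Ptprs (chromosome 17, 56412426 to 56476483), which encodes the receptor tyrosine phosphatase sigma, stood at 432, 497 and 545 against 862, 868, 921 and 970.2. Each library of the Mtg16-null colony thus exceeded each of the T/T colony, and the log2 difference was -0.88 ± 0.11 (SE; limma, adjusted p = 0.0463). The Nhsl1 call was lost without any 1 of the 3 T/T colony libraries, with the replicate number as a block, with Xist as a covariate and with the length trend removed (limma, adjusted p up to 0.199). The Ptprs call was lost in each of the 7 fits that left out a library, with the block, with Xist or request as a covariate, with the length trend removed, with a minimum mean of 50, without genes of shared sequence and with edgeR (adjusted p up to 0.31).

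The other lower genes share nearly all of their sequence with another gene. Gm3650 had no read in the T/T colony and stood at 78.1, 93.6, 93.3 and 44.8 normalized counts in the Mtg16-null colony, at least 23.4-fold higher against a floor of 3 reads per library (limma, adjusted p = 0.000446). Of its 31-base words 95.7% also lie in Spg11, a gene of lysosomal turnover, whose own level was 2333, 2314 and 2327 against 2403, 2316, 2257 and 2666. Reads of these sequences cannot be told apart beyond the words that differ. Hist1h4m had no read in the T/T colony and 26.9, 35, 35.3 and 10.2 in the Mtg16-null colony, at least 8.1-fold higher (limma, adjusted p = 0.0312). It was called in 1 of the 7 fits that left out a library.

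Hist1h4m (chromosome 13, 21811746 to 21812147, plus strand, GRCm38) and its neighbour Hist1h4n (21831767 to 21832196, minus strand) both encode histone H4, and 91.7% of the words of Hist1h4m also lie in Hist1h4n. They are shown because the count of Hist1h4m rests on so little sequence. Over the length of the Hist1h4m transcript a single base differs, G36A, counted from the 5′ end of the transcripts with Hist1h4m first, and the windows below span transcript positions 24 to 48 with that base in capitals.
Hist1h4m: agttttgtcttcGtcatgtctggtc
Hist1h4n: agttttgtcttcAtcatgtctggtc
Hist1h4n stood at 98.9, 107.8 and 73.9 normalized counts in the T/T colony, at 75.5 and 92.4 in the Mtg16-null colony of request 5094, and at 36.6 and 26.5 in request 4149. The sum of both genes was 98.9, 107.8 and 73.9 against 102.4, 127.4, 71.8 and 36.6, so the summed level overlapped between the colonies.

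**Figure D1:**
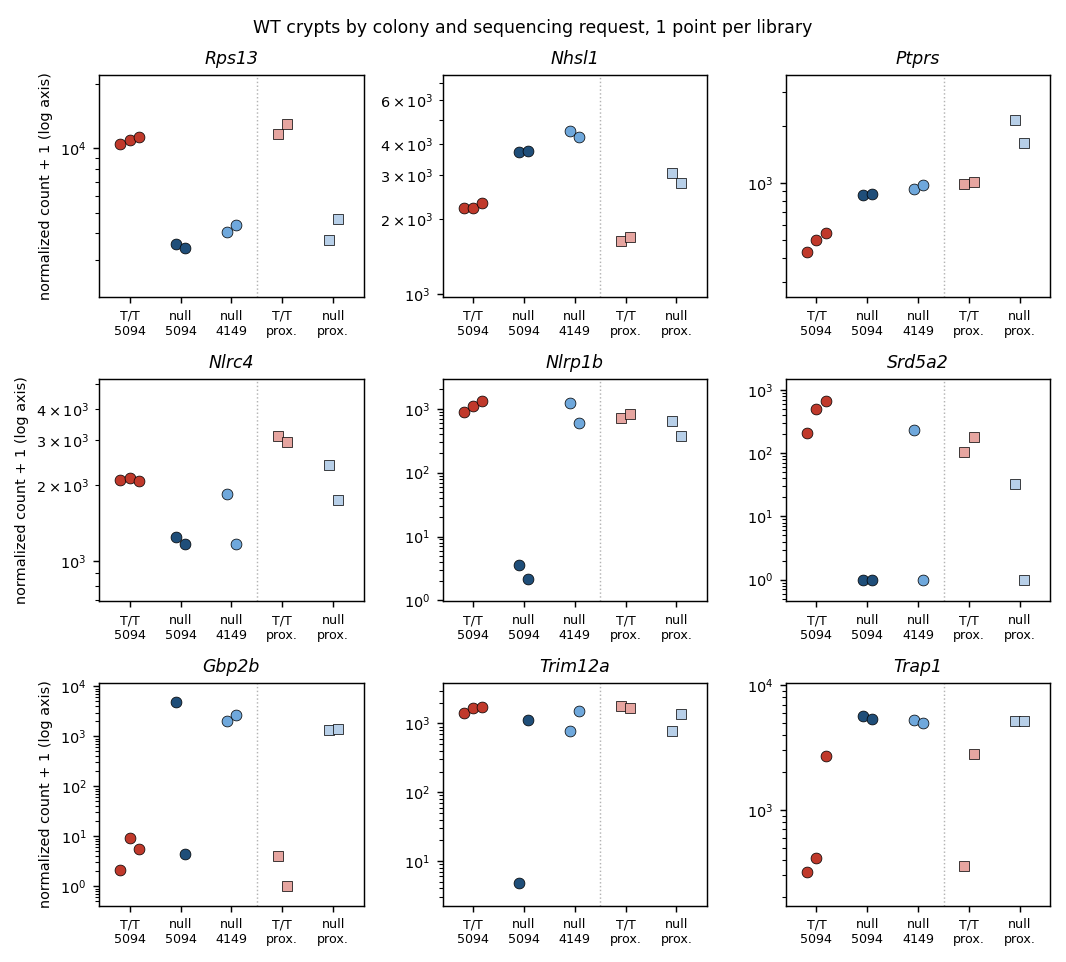
Normalized count + 1 on a log axis for 9 genes, 1 point per WT library, with distal libraries as circles and proximal libraries as squares, grouped by colony and request. Rps13, Nhsl1 and Ptprs separated the colonies in all 7 distal libraries, whereas Nlrp1b and Srd5a2 separated the distal libraries within request 5094 but not over all 7, and Gbp2b and Trim12a had single libraries far from their group.

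Request 5094 is the only request that held distal WT of both colonies, so the comparison was repeated in its 5 libraries, 3 against 2. There 36 genes (0.265% of 13598) passed the same test, 11 higher (0.0809%) and 25 lower (0.184%) in the T/T colony. Of the 5 genes above, Rps13, Gm3650, Nhsl1 and Hist1h4m passed again. Rps13 had a log2 difference of 1.64 ± 0.06 (SE; limma, adjusted p = 0.000335), Nhsl1 of -0.74 ± 0.06 (limma, adjusted p = 0.0207) and Ptprs of -0.82 ± 0.12 (limma, adjusted p = 0.0827). These 5 libraries are also in the first comparison, so the values stand side by side and are not a second sample. Between the groups of 3 and 2, 18.4% of genes were higher and 19.0% lower with no overlap, and 8.2% were higher and 9.55% lower at an unadjusted p under 0.05. edgeR called 11 higher (0.0809%) and 34 lower (0.25%), and DESeq2 258 (2.2%) and 441 (3.75%) of 11749. An exact permutation test of 3 against 2 cannot give a two-sided p under 0.2. Single libraries weighed on the number of calls: it was 4 higher and 1 lower without T/T colony replicate 2, 25 and 43 without T/T colony replicate 3, 5 and 1 without Mtg16-null colony replicate 1, and 11 and 1 without replicate 2. The last 2 fits set 3 libraries against 1, with the lone library assumed to vary like the other group. With Xist as a covariate 5 genes were higher and 1 lower.

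Inflammasome genes were among the 11 higher ones. Nlrp1b (chromosome 11, 71153102 to 71230733), a sensor that activates caspase-1, stood at 881, 1109 and 1334 normalized counts in the T/T colony and at 2.56 and 1.13 in the Mtg16-null colony of request 5094. In request 4149 the Mtg16-null colony stood at 1239 and 607, so the low level was found in replicates 1 and 2 and not across that colony. Within request 5094 the summed reads were 3008 and 3, a depth-adjusted ratio of 614.6 with an exact 95% counting interval of 210.1 to 2982 (limma on the log2 scale, 8.63 ± 0.30 SE, adjusted p = 0.0003). Over all 7 libraries the adjusted p was 0.507. Nlrc4 (chromosome 17, 74425438 to 74459142), which forms the inflammasome that responds to bacterial flagellin, stood at 2089.7, 2136 and 2069 in the T/T colony against 1245 and 1164 in request 5094 and 1838 and 1163 in request 4149. The T/T colony was above all 4 libraries, and within the request the log2 difference was 0.80 ± 0.07 (SE; limma, adjusted p = 0.0238).

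Srd5a2, the steroid 5-alpha reductase that makes dihydrotestosterone, and its neighbour Gm31235, a noncoding RNA gene, behaved alike. Srd5a2 (chromosome 17, 74016955 to 74047916) stood at 210.1, 497 and 684 in the T/T colony, at 0 and 0 in the Mtg16-null colony of request 5094, and at 235 and 0 in request 4149. Gm31235 (74055731 to 74080293) stood at 275, 680.3 and 875, then 0 and 0, then 358 and 0. In both genes 3 of the 4 Mtg16-null colony libraries had no read, and replicate 3 had a level near that of T/T colony replicate 1. Within request 5094 Srd5a2 was at least 128-fold and Gm31235 at least 169-fold higher in the T/T colony (limma, adjusted p = 0.00237 and 0.00216).

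Plet1, a glycoprotein of the cell surface, stood at 18565, 25300.2 and 23303 in the T/T colony, at 7822 and 9883 in the Mtg16-null colony of request 5094 and at 28572 and 16506 in request 4149. The Mtg16-null colony was below the T/T colony in request 5094 but not throughout request 4149, and within request 5094 the log2 difference was 1.34 ± 0.15 (SE; limma, adjusted p = 0.0493). Muc1, a transmembrane mucin, stood at 1596, 1935 and 1782 against 1036 and 1016, and at 2127 and 2543 in request 4149. Here the T/T colony lay between the 2 requests of the other colony, and the difference within request 5094 was 0.78 ± 0.10 (SE; limma, adjusted p = 0.0493). Eif3j1, a subunit of a translation initiation factor, stood at 1343, 1352 and 1127 against 643 and 676, and at 698 and 1276 in request 4149, with 53.6% of its words shared with other genes. The list of higher genes was completed by Trpv6, an epithelial calcium channel, by Mgat4c, a glycosyltransferase, and by the unnamed gene Gm14137.

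**Figure D2:**
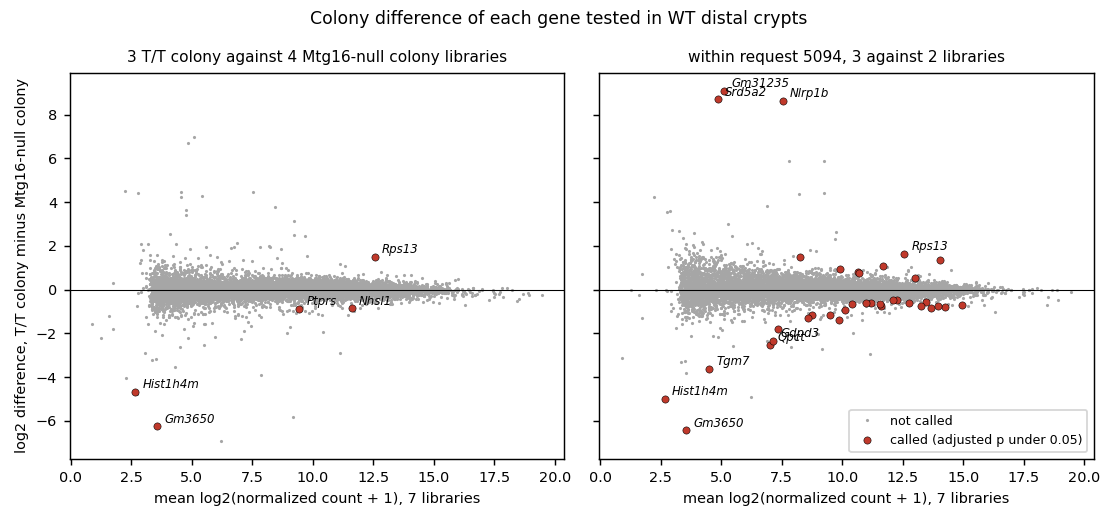
Log2 difference, T/T colony minus Mtg16-null colony, against mean log2(normalized count + 1), 1 point per gene of 13598, for all 7 libraries and for the 5 of request 5094. Called genes are coloured, 5 in the first panel and 36 in the second, and the names mark every called gene of the first panel and, in the second, Rps13 and those beyond 2 on the log2 scale.

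The 25 genes that were lower in the T/T colony within request 5094 included Gm3650 and Hist1h4m, described above, and several enzymes. Qpct (chromosome 17, 79051906 to 79090378), the glutaminyl cyclase that caps peptides with pyroglutamate, stood at 42.2, 57.6 and 57.7 in the T/T colony, at 374 and 245 in the Mtg16-null colony of request 5094 and at 118 and 393 in request 4149. All 4 libraries of the Mtg16-null colony were higher, but they spread widely. The log2 difference was -2.52 ± 0.26 within the request (SE; limma, adjusted p = 0.0366) and -2.27 ± 0.39 over all 7 libraries (limma, adjusted p = 0.225). Gdpd3, a phosphodiesterase of lysophospholipids, stood at 80.0, 65.9 and 55.4 against 262 and 442, and at 95.2 and 331 in request 4149. The groups did not overlap, and within the request the difference was -2.34 ± 0.28 (SE; limma, adjusted p = 0.0493). Eno3, an enolase of glycolysis, stood at 9466, 10836 and 10561 against 18175 and 18872, with 12313 and 13558 in request 4149. The level in request 4149 lay between the other groups, and the difference within request 5094 was -0.85 ± 0.08 (SE; limma, adjusted p = 0.0255).

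Other lower genes act in the cytoskeleton, transport and the surface coat. Tppp3, a tubulin-binding protein, stood at 743, 629 and 489.6 in the T/T colony, at 1626 and 1534 in request 5094 of the Mtg16-null colony and at 1218 and 847 in request 4149 (difference within request 5094 -1.37 ± 0.17 SE; limma, adjusted p = 0.0493). Itpripl2 stood at 83.4, 92.1 and 92.4, then 335 and 294, then 172 and 236 (-1.81 ± 0.17 SE; limma, adjusted p = 0.0255). In both genes request 4149 lay between the others and above the T/T colony. Abca13, a large ABC transporter, stood at 261, 291 and 329, then 704 and 607, then 469.5 and 512 (-1.16 ± 0.15 SE; limma, adjusted p = 0.0493). The transmembrane mucin Muc4 stood at 7761, 7477 and 7369, then 13242 and 11654, then 10022 and 12806 (-0.72 ± 0.08 SE; limma, adjusted p = 0.0366). Muc3a, also a transmembrane mucin, stood at 798, 900.1 and 774, then 1442 and 1657, then 975 and 1499.5 (-0.91 ± 0.11 SE; limma, adjusted p = 0.0493). All 4 libraries of the Mtg16-null colony exceeded the T/T colony in Abca13, Muc4 and Muc3a, whereas Muc1 above went the other way within the same request.

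Of the 25 lower genes (0.184% of the 13598 tested), 10 have a longest annotated transcript over 8 kb, among 765 such genes tested. They include the dynein heavy chain gene Dync1h1, with 14806, 17937 and 16829.9 in the T/T colony, 28969 and 27812 in the Mtg16-null colony of request 5094 and 15923 and 19809.6 in request 4149. Here request 4149 overlapped the T/T colony. Hspg2, which encodes the basement membrane proteoglycan perlecan, stood at 1182, 1218 and 1171, then 1900.1 and 1791, then 1196 and 1202, also with request 4149 near the T/T colony. Fat1, Lrp1, Ubr4, Hectd4, Trrap, Muc4 and Abca13 were also among them. Levels moved with transcript length over all genes: the median log2 difference within request 5094 was 0.08 for the 654 genes under 1 kb, 0.06 from 1 to 2 kb, 0.01 from 2 to 4 kb, -0.05 from 4 to 8 kb and -0.15 over 8 kb. Mtg16-null colony replicate 1 stood furthest out, with a median log2 deviation of 0.12 over 8 kb, and the T/T colony libraries stood at -0.04, -0.06 and -0.07. Within request 5094, 39.0% of genes over 8 kb were lower and 8.63% higher in the T/T colony without overlap (19.0% and 18.4% of all genes). WT proximal crypts showed the opposite trend between the colonies, from -0.09 under 1 kb to 0.11 over 8 kb. There 34.5% of genes over 8 kb were higher and 6.89% lower without overlap (20.6% and 20.3% of all genes). With the length trend removed from each library, 9 genes were higher and 12 lower, and 21 of the 36 calls were kept. RNA quality was not given, and its part in these differences was not tested.

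**Figure D3:**
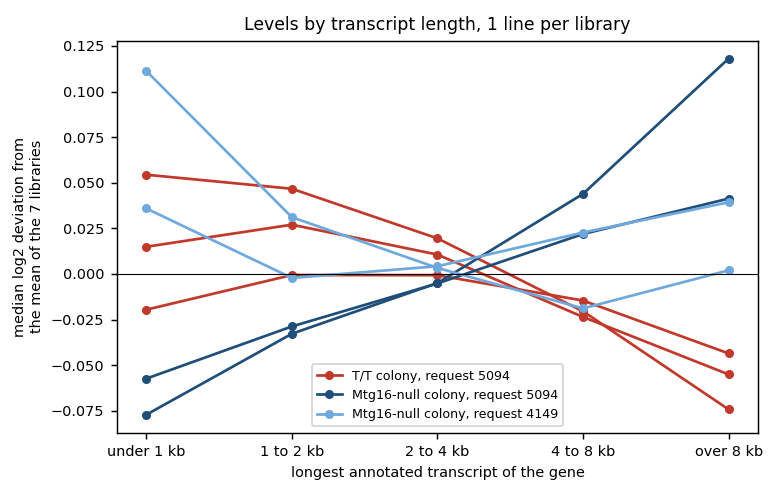
Median log2 deviation of each library from the mean of the 7 libraries, for genes binned by the length of their longest annotated transcript, 1 line per library. The 2 lines of the Mtg16-null colony in request 5094 rose with length to 0.12 and 0.04 over 8 kb, and the 3 lines of the T/T colony fell to between -0.04 and -0.07.

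Some of the called genes lie near each other. Chromosome 11 held 6 of the 36 (16.7%, against 8.27% of genes tested), and 4 of these start within a few megabases: Eno3 at 70.66 Mb, Rabep1 at 70.84 Mb, Nlrp1b at 71.15 Mb and Tlcd2 at 75.46 Mb. Rabep1, an effector of endosome fusion, and Tlcd2 were lower in the T/T colony, like Eno3, while Nlrp1b was higher. Chromosome 17 held 4 (11.1%, against 5.35%), namely Srd5a2 at 74.02 Mb, Gm31235 at 74.06 Mb, Nlrc4 at 74.43 Mb and Qpct at 79.05 Mb. The first 3 were higher and Qpct was lower. Chromosome 2 also held 4 (11.1%, against 7.82%), of which Gm14137 at 119.17 Mb and Eif3j1 at 122.03 Mb were higher and Tgm7, a transglutaminase gene, at 121.09 Mb and Fam102a at 32.54 Mb were lower. Positions are a description, and no test of clustering was made.

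The 2 requests within the Mtg16-null colony were compared as well, 2 libraries against 2, since a difference there cannot be one between colonies. By limma 4 genes (0.0294% of 13598) were higher in request 4149 and 0 lower, with 928 (6.82%) and 855 (6.29%) at an unadjusted p under 0.05. edgeR called 0 and 0, and DESeq2 173 (1.38%) and 114 (0.909%) of 12543. Nlrp1b was 1 of the 4, with a log2 difference of 8.30 ± 0.48 (SE; limma, adjusted p = 0.0304). The other 3 share at least 50% of their sequence with another gene, as do 4.04% of genes tested. For Nnt, a mitochondrial enzyme that yields NADPH, the annotation holds 2 gene models. Model ENSMUSG00000116207.1 had no read in the 5 libraries of request 5094 and 955 and 585 normalized counts in request 4149, at least 213-fold more (limma, adjusted p = 0.02). Model ENSMUSG00000025453.18 stood at 1899.7, 1997 and 2103 in the T/T colony, 2484 and 2241 in request 5094 of the Mtg16-null colony and 1309 and 1655 in request 4149. The sum of both models was 1899.7, 1996.9 and 2102.7, then 2484.0 and 2241.3, then 2264.4 and 2240.7, so the sum in request 4149 was close to that in request 5094 of the same colony. Rsc1a1, all of whose words lie in Ddi2, likewise had no read in request 5094 and 251 and 269 in request 4149, while Rsc1a1 and Ddi2 together gave 5599.2 to 7257.2 in request 5094 and 5806.3 and 6202.8 in request 4149. LOC102638448, a pseudogene with 84.2% of its words in Rps7, was the fourth, with 568 and 262 in request 4149.

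WT proximal crypts of the same colonies, 2 libraries each, gave the same measure in libraries the choice did not use. In them colony coincided with request (5582 for the T/T colony, 4149 for the other) and with the sex-linked pattern, with Ddx3y at 2091 and 1480.2 against 0 and 0, so the 3 cannot be told apart. By limma 8 genes were higher and 13 lower of 13774 (0.0581% and 0.0944%), of which 4 and 1 were the sex-linked genes. At an unadjusted p under 0.05 the shares were 4.05% and 4.3%. edgeR called 7 (0.0508%) and 8 (0.0581%), and DESeq2 84 (0.61%) and 77 (0.559%). Rps13 stood at 11669 and 12976 in the T/T colony against 3734 and 4691, close to its distal levels, with a log2 difference of 1.56 ± 0.14 (SE; limma, adjusted p = 0.0138). Gm3650 had no read in the T/T colony and 79.6 and 58.2 in the other (limma, adjusted p = 0.0371). Nhsl1 stood at 1633 and 1698 against 3067 and 2798, a difference of -0.81 ± 0.10 (SE; limma, adjusted p = 0.0744), and Ptprs at 983 and 1013 against 2139 and 1616, a difference of -0.90 ± 0.15 (limma, adjusted p = 0.211). The direction and size were near the distal ones, and neither passed the threshold. Qpct stood at 67.2 and 42.5 against 452 and 1163 (limma, adjusted p = 0.0641). Nlrp1b stood at 727 and 815 against 635 and 376, without the near absence seen in 2 distal libraries. Both proximal libraries of the Mtg16-null colony were of request 4149, however, where the distal libraries were also high, so this sets no segment apart.

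Wdfy1 and Gbp2b were called lower in proximal crypts of the T/T colony and varied more in distal ones. Wdfy1, an endosomal protein that binds phosphoinositides, stood at 744 and 598 against 3818 and 4091 in proximal crypts (-2.56 ± 0.14 SE; limma, adjusted p = 0.000813). In distal crypts it stood at 1264, 477 and 443 in the T/T colony and 2485, 2583, 2088 and 2677 in the Mtg16-null colony, without overlap (-1.92 ± 0.32 SE; limma, adjusted p = 0.225). Gbp2b, a guanylate-binding protein induced by interferon, stood at 3.10 and 0 against 1316 and 1425 in proximal crypts (limma, adjusted p = 0.00375). In distal crypts it stood at 1.11, 8.37 and 4.62 in the T/T colony, and at 4794, 3.38, 2060.2 and 2638 in the Mtg16-null colony. Low levels were thus found in all 5 untreated WT libraries of the T/T colony and in 1 of the 6 of the other.

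Of the 11 genes higher in the T/T colony within request 5094, 11 were also higher in proximal crypts, 9 without overlap, where 50.6% of all genes lay in that direction and 21% without overlap. Of the 24 lower genes listed there, 15 were lower, 8 without overlap (all genes: 49.4% and 20.1%). The 8 mutant distal libraries of untreated mice, 4 T/T and 4 Mtg16-null, differ in genotype as well as colony. The library labelled distal Mtg16-null replicate 2 had levels of regional genes like those of proximal crypts, in RPM (reads scaled to the same total in each library): Hoxd13 at 0, against 92.1 to 131 in the other 3 Mtg16-null mutants and 0 in all 4 WT proximal libraries, and Eno3 at 26, against 320.1 to 494 and 8.61 to 16.9. In the 8 libraries 9 of the 11 and 20 of 23 lay in the same direction (all genes: 53.2% and 46.8%), 2 and 2 without overlap (3.94% and 1.73%). Without that library 10 of 11 and 20 of 23 did (all genes: 50.5% and 49.5%), 2 and 5 without overlap (6.21% and 3.58%), a setting chosen after seeing the data. In 6 WT distal libraries taken in recovery from colitis caused by dextran sulfate sodium (DSS), 3 per colony and each colony in a request of its own, the counts were 8 of 11 and 9 of 23 (all genes: 55.5% and 44.5%), 4 and 4 without overlap (16.6% and 15.1%). The share of the lower genes that kept their direction after DSS was thus not above that of all genes.

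Levels in these further libraries were set on 1 scale as RPM over genes found in every table, as a description, since the tables were normalized separately. Rps13 stood at 241 to 281 in the 4 T/T mutants, near the 248, 257 and 259 of their WT. In the 4 Mtg16-null mutants it stood at 80.5, 7.81, 86.7 and 305, of which the second is the library with proximal levels of regional genes, against 79.2 to 97.6 in the WT of that colony. Without it the mutants lay within that range or, in replicate 4, far above it. After DSS it stood at 477, 501 and 285 in WT of the T/T colony and at 145, 102 and 5.47 in WT of the other. Qpct stayed between 0.395 and 1.9 in every crypt library of the T/T colony examined, and between 2.6 and 25.2 in every one of the Mtg16-null colony examined. Distal mutants, WT proximal libraries and post-DSS libraries were included. The 2 colonies did not overlap in Qpct across these 32 libraries.

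Nlrp1b was between 4.82 and 30.5 RPM in every crypt library of the T/T colony examined, which left out proximal mutants and tumors. In the Mtg16-null colony it was at 6.63 to 15 in the 4 mutants of untreated mice (11.7 to 15 without replicate 2), at 0.133 in 1 of 3 WT after DSS and at 0.343 and 0.083 in 2 of 4 mutants after DSS. Together with the 2 WT libraries at 0.058 and 0.026, 5 libraries of that colony were near 0, from both genotypes and both treatments. Nhsl1 stood at 15.6 to 50.8 in T/T mutants against 69.9 to 103 in Mtg16-null mutants (83.8 to 103 without replicate 2), without overlap. After DSS WT of the T/T colony stood at 47.2, 68.4 and 82.8 and WT of the other at 56.2, 81.7 and 76.8, which overlapped. Ptprs was lower in T/T than in Mtg16-null mutants, with overlap. After DSS Ptprs leaned the other way in WT, with 28.9, 23.5 and 17.5 against 18.2, 13.1 and 17.3, which also overlapped.

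**Figure D4:**
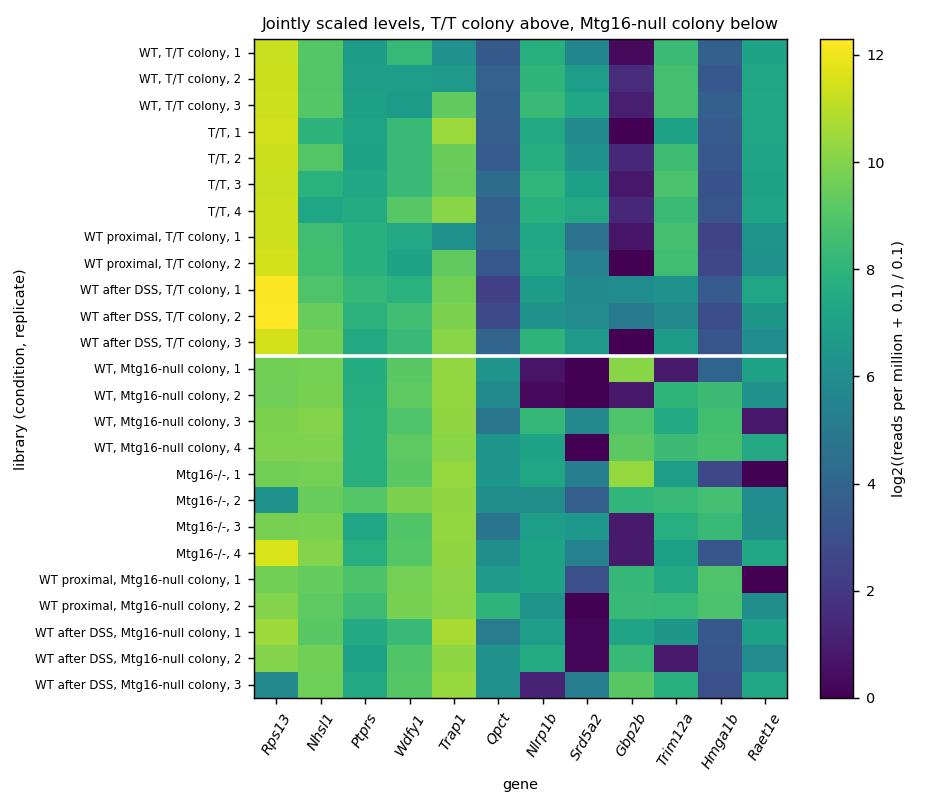
Levels of 12 genes in 25 libraries as log2((RPM + 0.1)/0.1), the T/T colony above the line and the Mtg16-null colony below it. Rps13 and Qpct kept the colonies apart in most rows, Nlrp1b, Srd5a2 and Trim12a were near 0 in some libraries of the Mtg16-null colony, and Gbp2b and Hmga1b were low across untreated libraries of the T/T colony and in some of the other.

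Several genes were present in some libraries and nearly absent in others of the same group, so that the mean of a group hid them. A search chosen after the values were seen, for genes at 200 or more in 1 of the 7 libraries and at 10 or fewer in another, found 23. Of these 5 were the sex-linked genes, and 12 share at least 50% of their words with another gene. Trim12a and Trim5, neighbouring antiviral TRIM genes that start at 104.30 and 104.26 Mb of chromosome 7, were nearly absent in Mtg16-null colony replicate 1. Trim12a stood at 1411, 1666 and 1761 in the T/T colony and at 3.84, 1139.8, 778 and 1539 in the Mtg16-null colony, and Trim5 at 245, 272 and 303 against 1.28, 166, 119.7 and 319.7. Raet1e, a ligand of the activating receptor NKG2D, stood at 3.15 in Mtg16-null colony replicate 3 and at 337 to 776 in the other 6 libraries. In proximal crypts of that colony it stood at 0 and 315, and the labels do not say whether proximal and distal libraries came from the same mice. Hmga1b, which is not among the 23, is a copy of the chromatin gene Hmga1 with 92.7% of its words in Hmga1. It stood at 54.5, 40.8, 54.3 and 65.3 in the T/T colony and Mtg16-null colony replicate 1, and at 1469, 1669 and 1867 in the other 3. Hmga1 went the other way, with 6244, 5471 and 5729 against 4634, 3177, 2927 and 3491, and the sum of both was 6298, 5511 and 5783 against 4699, 4646, 4596 and 5358. Summed, the colonies thus differed far less but still did not overlap, and reads of the copies cannot be told apart beyond the words that differ.

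Trap1, a mitochondrial chaperone of the HSP90 family, was graded rather than on or off. It stood at 315, 414 and 2732 in the T/T colony and at 5650.4, 5394, 5308 and 4981 in the Mtg16-null colony. All 4 libraries of the Mtg16-null colony were alike, and the T/T colony was lower and uneven (-2.91 ± 0.61 SE; limma, adjusted p = 0.317). Proximal crypts of the T/T colony also split, with 352 and 2823 against 5171 and 5166. In RPM the 4 T/T mutants stood at 140, 73.1, 69.7 and 110, above their 3 WT libraries at 7.44, 9.73 and 62.6.

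Of 10 genes of the MTG family and the E proteins, limma called 0 between the colonies, with 2 lower at an unadjusted p under 0.05 both over all 7 libraries (5.29% of all genes) and within request 5094 (9.55%). edgeR and DESeq2 each called 0 over all 7 libraries and 1 lower in the T/T colony within request 5094 (0.25% and 3.75% of all genes), which was Cbfa2t3. Cbfa2t3, the gene of MTG16 itself, stood at 998, 1052 and 1128 in the T/T colony, at 1767 and 1622 in the Mtg16-null colony of request 5094 and at 999 and 1519.9 in request 4149. Within request 5094 the difference was -0.68 ± 0.09 (SE; limma, adjusted p = 0.0527), and over all 7 libraries -0.45 ± 0.18 (limma, adjusted p = 0.454), where replicate 3 overlapped the T/T colony. Neurog3, the factor that starts enteroendocrine fate, stood at 63.4, 92.1 and 62.4 against 79.4, 105, 92.6 and 59.0, with full overlap (-0.20 ± 0.25 SE; limma, adjusted p = 0.824). Chga, the granin of enteroendocrine granules, differed by 0.02 ± 0.11 (limma, adjusted p = 0.975), and the stem cell receptor gene Lgr5 by 0.06 ± 0.23 (limma, adjusted p = 0.948). Insrr, an insulin receptor relative, differed by -0.26 ± 0.25 (limma, adjusted p = 0.751), and Hoxd13, a gene of the most distal Hox position, by -0.34 ± 0.18 (limma, adjusted p = 0.552). In none of these did limma find a difference over all 7 libraries.

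Gene lists for pathways and cell types were read against all genes tested, whose median log2 difference was -0.01 over 7 libraries and 0.00 in request 5094. Genes of DNA replication lay higher in distal crypts of the T/T colony, although limma called none of them. Of 25 S phase genes, 22 were higher without overlap within request 5094 (18.4% of all genes), 21 at an unadjusted p under 0.05, with a median of 0.48. None passed adjustment in limma or edgeR, and DESeq2 called 14. Over all 7 libraries 5 were higher without overlap (5.18% of all genes), with a median of 0.36. Proximal crypts had 3 higher and 1 lower without overlap (20.6% and 20.3% of all genes), with a median of 0.05. Within the Mtg16-null colony 10 were higher in request 4149 and 1 lower without overlap (24.1% and 23.0% of all genes), with a median of 0.27. Pcna, the sliding clamp of the replication fork, stood at 5746, 5603 and 5156 in the T/T colony, 3466 and 4265 in request 5094 of the other and 5583 and 3834 in request 4149. In request 4149, 1 library thus lay in the range of the T/T colony and 1 in that of request 5094. The 25 mitosis genes had a median of 0.26 within the request and 2 higher without overlap, and their mean log2 deviation ran from 0.72 in T/T colony replicate 1 to -0.85 in Mtg16-null colony replicate 4.

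Cholesterol synthesis genes separated the colonies within request 5094 and not over all 7 libraries. Of 23 genes, 20 were higher in the T/T colony without overlap within request 5094, with a median of 0.47 (18.4% of all genes), and 0 over all 7 libraries, with a median of 0.35 (5.18% of all genes). By limma and edgeR 0 passed adjustment within the request, 14 had an unadjusted p under 0.05 and DESeq2 called 8. Within the Mtg16-null colony 16 of the 23 were higher in request 4149 without overlap and 1 lower (24.1% and 23.0% of all genes), with a median of 0.34. Hmgcs1, an early enzyme of the pathway, stood at 38707, 24253 and 24653 in the T/T colony, 15978 and 14753 in request 5094 of the Mtg16-null colony and 29033 and 23054 in request 4149. The 2 Mtg16-null colony libraries of request 5094 were the lowest, and T/T colony replicate 1 was the highest. The list as a whole had its highest mean log2 deviation in that replicate too, at 0.49, and its lowest in those 2 libraries, at -0.25 and -0.35.

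Part of the goblet genes lay lower in the T/T colony, although limma called none of them. Of 23 goblet genes, 7 were lower without overlap over all 7 libraries (5.26% of all genes) and 11 within request 5094 (19.0%), 0 higher in either, with medians of -0.30 and -0.25. Before adjustment 9 and 11 had a p under 0.05, and limma and edgeR called 0 after adjustment while DESeq2 called 1 and 3. The mean log2 deviation of the list was 0.03, -0.51 and -0.08 in the T/T colony against 0.02, 0.04, 0.09 and 0.41, so T/T colony replicate 1 overlapped the other colony and replicate 2 was the lowest. Spdef, a transcription factor of goblet cell maturation, stood at 1986, 1897 and 1793 in the T/T colony and at 2606, 2693, 2171 and 3551 in the other, without overlap (-0.52 ± 0.15 SE; limma, adjusted p = 0.382). Tff3, a trefoil peptide secreted with mucus, stood at 22452, 25558 and 25018 against 32051, 27877, 32123 and 37682, also without overlap (-0.41 ± 0.11 SE; limma, adjusted p = 0.37). Proximal crypts had 8 of the 23 lower and 0 higher without overlap (20.3% and 20.6% of all genes), with a median of -0.27. In bulk crypts, fewer cells of a type and less RNA per cell cannot be told apart. Enteroendocrine (31 genes), tuft (16), absorptive (24) and stem cell (15) lists had medians from -0.20 to -0.07 over all 7 libraries, with 0 or 1 gene without overlap in each direction.

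Within the Mtg16-null colony, interferon and lymphocyte genes lay higher in request 4149 than in request 5094, although limma called none of them. Of 30 interferon-stimulated genes, 26 were higher in request 4149 than in request 5094 within the Mtg16-null colony without overlap (24.1% of all genes), with a median of 0.68. In limma and edgeR 0 passed adjustment, with 21 at an unadjusted p under 0.05 and 13 called by DESeq2. Isg15, an interferon-induced ubiquitin-like protein, stood at 835, 764 and 876 in the T/T colony, 539 and 476 in request 5094 and 928 and 1912 in request 4149. The T/T colony lay between the requests of the other colony, and the colony difference depended on the libraries used: over all 7 the interferon list had a median of -0.11 with 0 higher and 1 lower without overlap (5.18% and 5.26% of all genes), and within request 5094 a median of 0.32 with 16 higher and 2 lower (18.4% and 19.0%), 13 higher at an unadjusted p under 0.05, 0 called by limma or edgeR and 8 by DESeq2. Of 16 markers of T cells and intraepithelial lymphocytes, 15 were higher in request 4149 without overlap within the Mtg16-null colony (24.1% of all genes). Of these markers 12 had an unadjusted p under 0.05, 0 passed adjustment in limma or edgeR and DESeq2 called 7. Their summed level was 1453, 2326 and 4777 in the T/T colony, 2106 and 1284 in request 5094 and 3379 and 4440 in request 4149, so the highest sum was that of T/T colony replicate 3 in request 5094. The part of lymphocytes in the interferon values was not tested.

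Myeloid markers lay higher in distal crypts of the T/T colony, although limma called none of them. Of 15 markers, 6 were higher without overlap over all 7 libraries and 12 within request 5094 (5.18% and 18.4% of all genes), with medians of 0.61 and 0.86. None passed adjustment by limma or edgeR, 5 and 10 had an unadjusted p under 0.05, and DESeq2 called 0 and 1. The complement genes C1qa, C1qb and C1qc, made by macrophages, were each without overlap. C1qc stood at 74.5, 81.6 and 65.8 in the T/T colony and at 48.7, 23.7, 32.8 and 33.6 in the other (1.11 ± 0.27 SE; limma, adjusted p = 0.358). The summed level of the myeloid list was 7614, 7894 and 6948 against 6420, 4997, 8103 and 5820, which overlapped. In proximal crypts 3 myeloid markers were higher and 1 lower without overlap (20.6% and 20.3% of all genes), with a median of 0.13. Of 12 heat shock genes, 8 were lower and 1 higher in the T/T colony without overlap within request 5094 (19.0% and 18.4% of all genes), and 7 were lower without overlap in request 4149 than in request 5094 of the Mtg16-null colony (23.0% of all genes). By limma and edgeR 0 passed adjustment in either, DESeq2 called 4 lower in each, and 6 lower in each and 1 higher within request 5094 had an unadjusted p under 0.05. Hspa1a, an inducible chaperone, stood at 431 and 359 in the 2 Mtg16-null colony libraries of request 5094, at 93.4, 106 and 43.9 in the T/T colony and at 59.2 and 80.4 in request 4149. Within request 5094 it differed by -2.36 ± 0.38 (SE; limma, adjusted p = 0.0873).

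**Figure D5:**
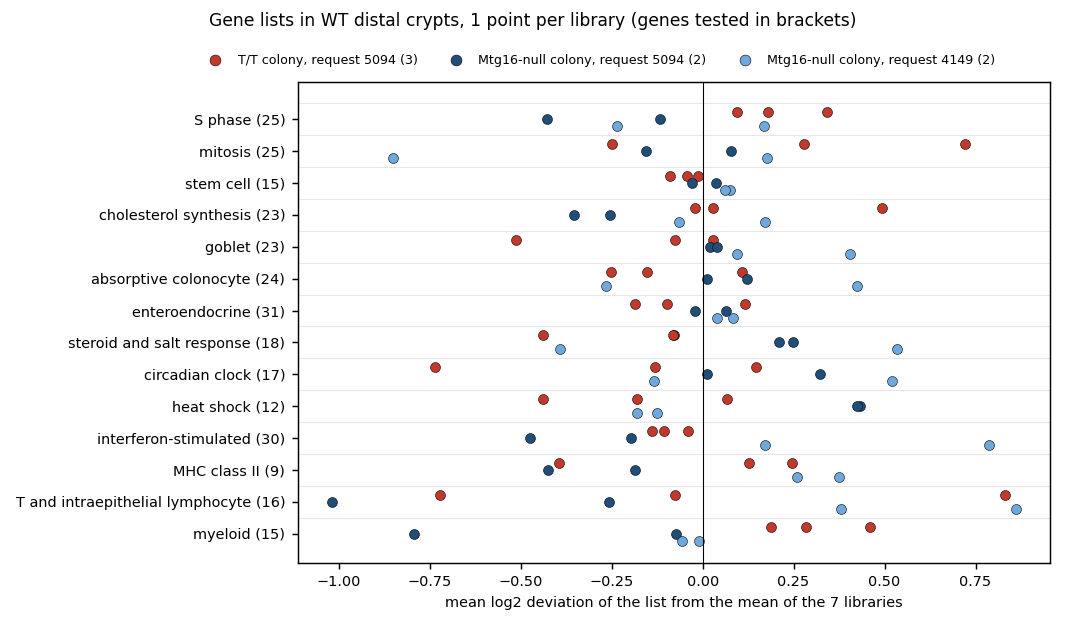
Mean log2 deviation of 14 gene lists in each of the 7 libraries, from the mean of the 7, 1 point per library and list, coloured by colony and request. The T/T colony libraries lay above the Mtg16-null colony of request 5094 for S phase, cholesterol and myeloid genes, and request 4149 lay above all other libraries for interferon-stimulated genes.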

How the data were processed

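The deposited tables hold DESeq2-normalized counts per gene, a signal that is not whole, which the authors made from poly(A) RNA-seq with fastp 0.20.0, Salmon 1.3.0 and DESeq2 1.26.0 on mm10 with GENCODE vM21. Undoing each library's size factor gave whole reads (100% of values, tolerance 0.01). Intervals and floors cover counting error only. Differences were tested with limma 3.58.1 (trend) on log2(normalized count + 1) for genes with a mean of 10 or more, with Benjamini-Hochberg adjustment over all genes tested, and a difference on this scale understates that of low genes. edgeR 4.0.16 and DESeq2 1.42.0 on the recovered reads were alternatives. The fits were also run on simulated reads with a common dispersion for all genes. No simulated gene was present in some libraries of a group and absent in others. That run therefore does not show how the fits behave on such genes or why the tools differ here. The members and gene lists were chosen with earlier results of these data known. A rule named the called genes of largest difference with a mean of 50 or more in the higher group, no overlap and the same direction within request 5094 (up to 10 per direction over 7 libraries, 5 more within request 5094, 5 for the request), with Xist, Ddx3y, Nnt, Cbfa2t3, Neurog3, Insrr, Chga, Lgr5 and Hoxd13 always. Other genes were named after their values were seen. Gene positions are GRCm38. The authors' fold changes and p-values and the tumor libraries were not used.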

Additional observations from a re-analysis of the deposited data

Results flagged for a closer look

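Within the 4 Mtg16-null colony libraries, or between distal and proximal crypts, 17 values stood out, 16 of them among 77 groups of 4, where chance would set apart about 5 percent. That rate does not hold for the 11 that belong to genes searched for because they were near absent in 1 library and present in another. Replicate 1 stood far below the other 3 in Trim12a (3.84 normalized counts), Hmga1b (65.3) and the interferon-inducible GTPase gene Gvin1 (0.0). Replicate 2 stood apart in the sex-linked genes, with Xist at 3.38, Ddx3y at 1602.07, Uty at 1093.6, Eif2s3y at 2047.4 and a mean log2 deviation of 3.246 for the sex-linked list. The same replicate was low in Gbp2b (3.38) and in the myeloid list, whose mean log2 deviation was -0.793. Replicate 3 was above the others in Nlrc4 (1837.74), Srd5a2 (235.07), Gm31235 (357.97) and Gm14440 (465.74), and below them in Raet1e (3.15) and Insrr (35.92). Abca13 was lower in each distal T/T colony library within request 5094, and its log2 difference in proximal crypts was 0.4351, with both T/T colony libraries higher. The difference between these differences was not tested.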

How the results depend on the processing

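Counts of called genes moved with most settings, and the cause was not tested. Over all 7 libraries (1 higher, 4 lower) the counts were 49 and 77 with DESeq2, 2 higher with request as a covariate, and 2 lower with edgeR. They were 1 lower with a minimum mean of 50, with Xist as a covariate, with the length trend removed, and without genes that share at least 50% of their sequence. Leaving out 1 library gave 1 to 5 higher and 1 to 10 lower genes, the most without Mtg16-null colony replicate 1 (5 and 7) and replicate 3 (4 and 10). Within request 5094 (11 and 25) the counts were 2 and 2 with no filter, 5 and 6 with a minimum mean of 50, 258 and 441 with DESeq2, 5 and 1 with Xist, 2 and 4 in a fit of all 3 groups, and 12 lower with the length trend removed. Leaving out 1 library gave 4 to 25 and 1 to 43. Between requests (4 and 0) the counts were 0 higher with no filter, with a minimum mean of 50, with edgeR and without shared sequence, 173 and 114 with DESeq2, and 12 and 4 in the fit of 3 groups. Leaving out 1 library gave 4 to 86 and 0 to 115, the most without replicate 4 (86 and 115) and replicate 3 (76 and 64), with the lone sample assumed to vary like the others. In proximal crypts (8 and 13) the counts were 84 and 77 with DESeq2, and 8 lower with a minimum mean of 50 or edgeR and 5 without shared sequence, and leaving out 1 library gave 6 to 42 and 6 to 29, the most without Mtg16-null colony replicate 2 (42 and 29). The length, shared-sequence and 3-group settings were chosen after seeing the data.

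Over all 7 libraries the correlations of same-numbered deviations were 0.13, 0.163 and -0.1, and those of other pairs ran from -0.172 to 0.28. Within request 5094 the same-numbered ones were 0.121 and 0.148, and the others ran from -0.148 to 0.006. With so few libraries these values cannot decide whether replicate numbers pair the libraries. With the replicate block 3 genes were higher and 2 lower over all 7 libraries, and 36 and 55 within request 5094, where 32 of the 36 calls were kept. Of the named genes, the log2 difference over all 7 libraries changed sign for Ddx3y (-0.2283 with Xist), for Nnt model ENSMUSG00000025453.18 (-0.0004 with Xist, -0.2398 with request, -0.0694 to 0.2385 when leaving out 1 library, the lowest without Mtg16-null colony replicate 3), for Chga (-0.005 with the length trend removed, -0.0669 to 0.0971 when leaving out 1 library, the lowest without T/T colony replicate 2, and -0.05 without Mtg16-null colony replicate 2) and for Lgr5 (-0.1512 to 0.1997 when leaving out 1 library, the lowest without T/T colony replicate 1, and -0.0551 without Mtg16-null colony replicate 2), none of them called. Other values of named genes kept direction and call in 451 cases, lost the call in 95 and gained it in 1 (Nnt model ENSMUSG00000116207.1 with DESeq2). Of 1732 list medians under an alternative 70 moved by more than the spread between libraries, 49 of them on leaving out 1 library. Leaving out Mtg16-null mutant replicate 2, chosen after seeing the data, moved the count of lower genes without overlap in mutants from 2 to 5. Depth limits genes without reads in a group, whose folds are lower bounds set by a floor of 3 reads per library.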
